A study of Arabidopsis thaliana with 9 samples.

Results

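The chloroplast genome of Arabidopsis thaliana carries 6 genes for subunits of the ATP synthase, atpA, atpF, atpH, atpI, atpE and atpB, and the small RNA reads at these genes are described here. The genes were taken by their locus identifiers (atpA ATCG00120, atpF ATCG00130, atpH ATCG00140, atpI ATCG00150, atpE ATCG00470 and atpB ATCG00480) from a table of small RNA reads per gene. They were 6 of 37336 listed loci and 6 of the 133 listed loci of the chloroplast genome. All 6 were among the 4766 loci that passed the filter on low values (10 normalized reads or more in 3 or more libraries), and each had more than 10 normalized reads in every library.

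The chloroplast ATP synthase sits in the thylakoid membrane and makes ATP from the proton gradient that photosynthetic electron transport builds up. Its membrane part, CF0, conducts protons through a rotating ring of c subunits, and its stromal part, CF1, turns that rotation into ATP on the catalytic beta subunits. The remaining subunits are encoded in the nucleus and imported. Chloroplast genes are transcribed together in clusters, and the long transcripts are then cut and trimmed by nucleases up to bound proteins or folded RNA, which can leave short RNA fragments behind.

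The groups were prors1 (LUC), rls6 and Col-0 (LUC), 3 libraries of each genotype. The control, Col-0, is the accession most used in the laboratory. PRORS1 is the prolyl-tRNA synthetase of chloroplasts and mitochondria, and the lower-case name is the usual one for its mutants. The labels give neither the allele, nor the change that rls6 carries, nor the meaning of LUC. The source label instead names the mutants rbp-ko-1 for prors1 (LUC) and rbp-ko-2 for rls6. All plants grew on soil in days of 16 h light and 8 h dark, for 25 days by one label and 26 days by another, and no label names a tissue. RNA of 17 to 30 nt was taken from a gel that held 30 µg of total RNA. The design sets small RNA of the mutants against that of Col-0 (LUC). The labels do not say whether libraries of 1 genotype were made from different plants, and a p-value therefore reflects the spread among these libraries, which may be technical.

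The 6 genes form 2 clusters, both read from the minus strand of the chloroplast genome (TAIR10.1, 154478 bases). The large cluster spans 4833 bases. It runs in the direction of transcription from atpI (14021 to 14770, 750 bases) through atpH (13262 to 13507, 246 bases) and atpF (11529 to 12798, 1270 bases with 2 exons and an intron of 715 bases) to atpA (9938 to 11461, 1524 bases). The small cluster spans 1892 bases and holds atpB (52660 to 54156, 1497 bases) and atpE (52265 to 52663, 399 bases). The genes other than atpF have 1 exon each, and these positions are those of the coding genes as annotated. Gaps of 513, 463 and 67 bases separate the genes of the large cluster in that order. The genes atpB and atpE instead share 4 bases.

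The first sequence shown is that junction, because a read across it belongs to both genes and the counting rule decides where it goes. It covers chloroplast positions 52630 to 52693 on the minus strand, 5′ to 3′, and the capitals mark the bases that lie in both genes, at the end of atpB and the start of atpE.
atpB-atpE junction: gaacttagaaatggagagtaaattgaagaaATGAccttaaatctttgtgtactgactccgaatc

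The next pair of sequences shows where reads of atpH and atpI cannot be placed with certainty. Capitals mark bases inside a 21-base window that also occurs elsewhere in the genome. The whole of atpH has 143 such bases of 246, and the first 300 bases of atpI (14471 to 14770) have 242. Both are given from the minus strand, 5′ to 3′, as the reference genome (RefSeq, TAIR10.1) has them.
atpH: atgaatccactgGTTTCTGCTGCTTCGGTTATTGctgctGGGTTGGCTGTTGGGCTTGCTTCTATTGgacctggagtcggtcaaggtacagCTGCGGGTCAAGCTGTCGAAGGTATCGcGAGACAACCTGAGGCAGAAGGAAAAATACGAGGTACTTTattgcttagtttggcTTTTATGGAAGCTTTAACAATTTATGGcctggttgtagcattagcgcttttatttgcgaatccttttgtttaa
atpI start: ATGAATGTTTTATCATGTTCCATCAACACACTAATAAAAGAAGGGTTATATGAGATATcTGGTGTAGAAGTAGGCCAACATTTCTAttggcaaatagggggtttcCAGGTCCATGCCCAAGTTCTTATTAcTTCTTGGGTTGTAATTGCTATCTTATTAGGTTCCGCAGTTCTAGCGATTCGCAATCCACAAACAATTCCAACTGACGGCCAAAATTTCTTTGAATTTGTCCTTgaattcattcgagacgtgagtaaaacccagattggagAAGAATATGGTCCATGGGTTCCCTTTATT

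Of all 21-base windows in the exons, 63.2% were unique to the gene for atpI, 81.0% for atpH, 92.6% for atpE, 98.5% for atpB, 99.1% for atpA and 100% for atpF. Only exact matches of 21 bases were compared. The RNA was 17 to 30 nt long, and shorter reads, or reads placed with a mismatch, can have further matches. The largest nuclear copy, with 267 windows of atpI and atpH, lies on chromosome 3 at 13536429 to 13537851 and overlaps the transcribed pseudogenes AT3G32990 and AT3G33000. AT3G32990 averaged 23.9 ± 3.55 normalized reads in prors1 (LUC), 18.6 ± 6.40 in rls6 and 20.3 ± 2.94 in Col-0 (LUC) (SD, n = 3 each). AT3G33000 averaged 6.13 ± 2.91, 3.80 ± 2.49 and 3.05 ± 2.35 normalized reads in the same order, so the groups overlapped at both pseudogenes. A stretch with 9 windows of atpE lies in the pseudogene AT2G16140 on chromosome 2, which had 1268 reads over the 9 libraries. How reads with several matching places, or from either strand, were counted is not given in the sources used here, and the part that such reads have in the values below was not tested.

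The libraries held between 611238 and 702303 reads over the listed loci, and the authors' size factors, by which the reads were divided to give normalized reads, lay between 0.950 and 1.24. Chloroplast loci as a whole took 3.45% to 4.25% of the reads in prors1 (LUC), 4.49% to 4.59% in rls6 and 2.43% to 2.5% in Col-0 (LUC). Among the mutants' libraries, prors1 (LUC) replicate 2 had the fewest chloroplast reads, with 20294 normalized reads against 24602 and 28335 in the other prors1 (LUC) libraries. PRORS1 (AT5G52520) itself had 16 reads over the prors1 (LUC) libraries, 21 over the rls6 libraries and 1 over the Col-0 (LUC) libraries, and RBP45D (AT5G19350), the gene in the study's title, had 1 read in all. Such reads are no measure of the mRNA and leave the genotypes unchecked. In bulk libraries, more cells or chloroplasts of a kind and more RNA in each cannot be told apart.

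All 6 ATP synthase genes rose in prors1 (LUC) and all 6 rose in rls6, each against Col-0 (LUC). The rises lay between 1.52-fold for atpI and 3.19-fold for atpA in prors1 (LUC), and between 1.63-fold for atpI and 5.11-fold for atpA in rls6. Of all 4766 tested genes, 14.4% passed the test in prors1 (LUC), 7.74% being higher, and 17.6% passed in rls6, 12.7% being higher. The tested chloroplast loci moved this way as a class. Of the 127 other listed chloroplast loci, 100 were tested. Of these 100, 70 were higher and 2 lower in prors1 (LUC), and 91 were higher and 3 lower in rls6. A locus could pass the filter on low values through the mutants alone, which favours higher calls among those tested. The ATP synthase genes thus shared the direction of most tested chloroplast loci. Both mutants were compared with the same Col-0 (LUC) libraries, so the 2 comparisons are not independent.

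**Figure D1:**
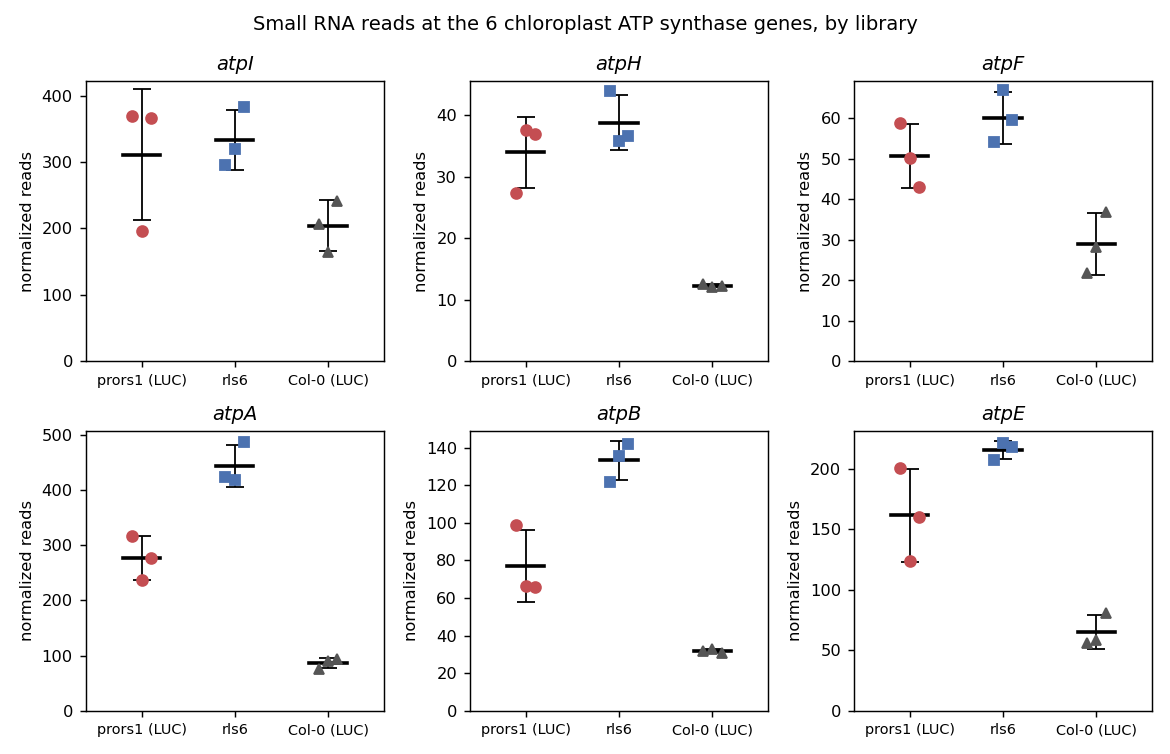
Normalized small RNA reads (y axis, linear from 0) at each of the 6 chloroplast ATP synthase genes in the 3 libraries of prors1 (LUC), rls6 and Col-0 (LUC). Points are libraries and bars are the mean ± SD. The mutants' libraries lie above all Col-0 (LUC) libraries in every panel except that of atpI, where prors1 (LUC) replicate 2 (197) lies inside the Col-0 (LUC) range.

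The gene atpA encodes the alpha subunit, which alternates with the beta subunit in the head of CF1. It had 317, 236 and 277 normalized reads in prors1 (LUC), 424, 418 and 487 in rls6, and 76.1, 90.8 and 93.3 in Col-0 (LUC), in replicates 1 to 3. The 3 groups did not overlap, with rls6 highest and Col-0 (LUC) lowest. Against Col-0 (LUC), the log2 fold change was 1.66 ± 0.12 (SE, adjusted p = 6.87e-10) in prors1 (LUC) and 2.34 ± 0.12 (adjusted p = 8.71e-13) in rls6. These adjusted p-values, like those below, come from limma with Benjamini-Hochberg adjustment over all tested genes, on the scale of log2(normalized reads + 1).

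The gene atpB encodes the beta subunit, which holds the catalytic sites. It had 98.9, 66.5 and 65.6 normalized reads in prors1 (LUC), 122, 136 and 142 in rls6, and 31.8, 32.9 and 30.7 in Col-0 (LUC). The order of the groups was that of atpA, again with no overlap. The rise was 2.42-fold in prors1 (LUC) (log2 fold change 1.22 ± 0.16, adjusted p = 5.13e-06) and 4.18-fold in rls6 (2.03 ± 0.16, adjusted p = 6.77e-10).

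The gene atpE encodes the epsilon subunit, which connects the CF1 head to the ring and restrains ATP hydrolysis in the dark. It had 201, 124 and 160.0 normalized reads in prors1 (LUC), 207, 221 and 218 in rls6, and 56.0, 58.6 and 81.0 in Col-0 (LUC). The mutants' libraries all lay above those of Col-0 (LUC), and prors1 (LUC) replicate 1 came close to the lowest rls6 library. The rise was 2.48-fold in prors1 (LUC) (log2 fold change 1.29 ± 0.15, adjusted p = 1.82e-06) and 3.30-fold in rls6 (1.73 ± 0.15, adjusted p = 6.55e-09).

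The gene atpI encodes subunit a of CF0, which forms the proton path beside the ring. It had 369, 197 and 366 normalized reads in prors1 (LUC), 296, 319.5 and 383 in rls6, and 207, 164 and 241 in Col-0 (LUC). In Col-0 (LUC) it had the most reads of the 6 genes in each library. The prors1 (LUC) libraries spread widely, with a mean of 311 ± 98.8 (SD, n = 3), and overlapped with those of Col-0 (LUC), while the rls6 libraries did not. The rises were the smallest of the 6 genes, 1.52-fold in prors1 (LUC) (log2 fold change 0.57 ± 0.18, adjusted p = 0.0351) and 1.63-fold in rls6 (0.71 ± 0.18, adjusted p = 0.0054).

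The atpI rise in prors1 (LUC) was the least secure of these calls. It was lost without prors1 (LUC) replicate 1 (adjusted p = 0.185) or replicate 3 (0.195), and without Col-0 (LUC) replicate 1 (0.075) or replicate 2 (0.136). Without prors1 (LUC) replicate 2, the low library, its log2 fold change was 0.87. DESeq2 called atpI neither in prors1 (LUC) (0.227) nor in rls6 (0.0898). Over 22 alternatives the adjusted p in prors1 (LUC) lay between 9.86e-06 and 0.227. In the authors' deposited table, whose fold changes follow prors1 (LUC) over Col-0 (LUC), the log2 value of atpI was 0.55 (adjusted p = 0.217), and the other 5 genes had adjusted p-values of 0.0335 or less. The base mean there was 451 at atpA, 395 at atpI and 229 at atpE, above every group mean here. At atpH, atpF and atpB it lay within the range of the group means. It is thus not the mean of these 9 libraries, and which libraries gave the deposited values is not stated in the sources used here.

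The gene atpH encodes subunit c, copies of which make up the ring, and atpF encodes subunit b, part of the stalk that holds the CF1 head in place. Small RNA reads at atpH numbered 27.4, 37.6 and 36.9 in prors1 (LUC), 44.0, 35.8 and 36.7 in rls6, and 12.5, 12.1 and 12.3 in Col-0 (LUC), after normalization. These rest on 12 to 48 reads per library. The mutants overlapped each other and stood above Col-0 (LUC), at 2.76-fold in prors1 (LUC) (log2 fold change 1.38 ± 0.21, adjusted p = 6.12e-05) and 3.16-fold in rls6 (1.58 ± 0.21, adjusted p = 4.56e-06).

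At atpF the normalized reads were 58.9, 50.1 and 43.1 in prors1 (LUC), 54.1, 66.9 and 59.5 in rls6, and 21.7, 28.1 and 36.9 in Col-0 (LUC). The mutants again overlapped each other and not Col-0 (LUC). The log2 fold change was 0.81 ± 0.19 in prors1 (LUC) (1.75-fold, adjusted p = 0.00518) and 1.06 ± 0.19 in rls6 (2.08-fold, adjusted p = 0.00022). Thus the groups did not overlap for 5 of the 6 genes in prors1 (LUC) against Col-0 (LUC) and for 6 of 6 in rls6 against Col-0 (LUC). The share of all tested genes with groups apart was not counted, so these counts are not read as a result about the 6 genes. Of the 100 other chloroplast loci, 70 and 91 were called higher in these comparisons. Such calls are another measure than groups apart. Separation from Col-0 (LUC) is not taken as particular to these genes.

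Between the mutants, reads at atpA and atpB were higher in rls6 than in prors1 (LUC), and the other 4 genes did not pass the test. The difference was 1.60-fold at atpA (log2 fold change 0.68 ± 0.12, adjusted p = 0.000154) and 1.73-fold at atpB (0.81 ± 0.16, adjusted p = 0.000577). Over all tested genes 16.8% passed in this comparison, 11.7% being higher in rls6, and 12 of the 100 other chloroplast loci were higher and 0 lower. At atpE the log2 fold change was 0.44 ± 0.15 (adjusted p = 0.0524), and the libraries did not overlap. It passed under 9 of 22 alternatives, with adjusted p-values of 0.00894 to 0.285, among them each fit without 1 Col-0 (LUC) library (0.0279 to 0.0488) and the fit without prors1 (LUC) replicate 1 (0.00894). The log2 fold changes of atpI (0.15 ± 0.18), atpH (0.20 ± 0.21) and atpF (0.25 ± 0.19) had adjusted p-values of 0.64, 0.599 and 0.427, and the libraries of the mutants overlapped.

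**Figure D2:**
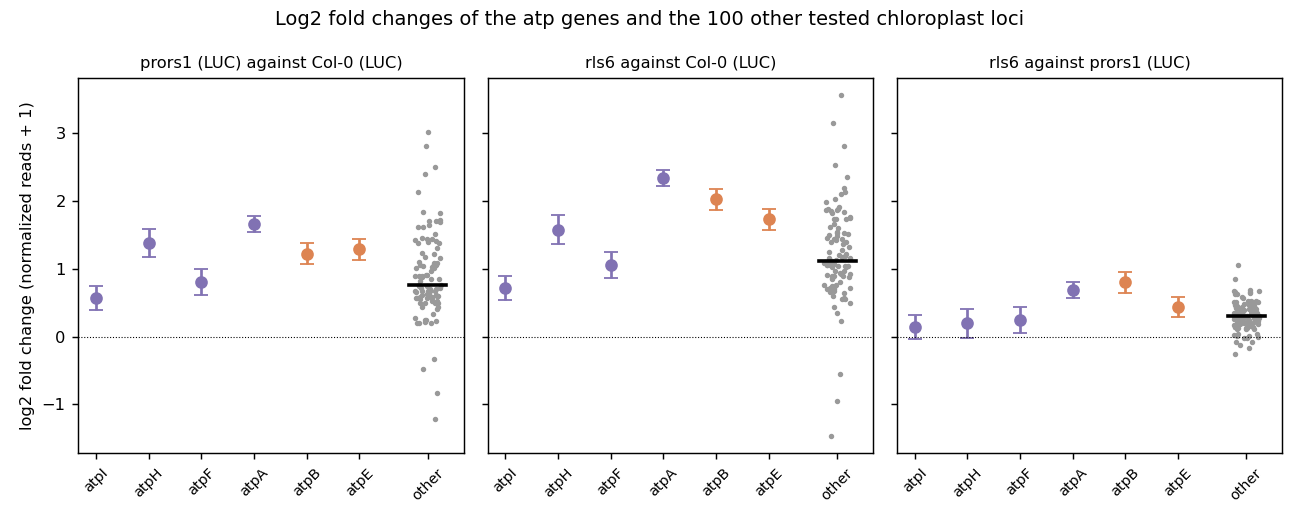
Log2 fold change (y axis, on log2(normalized reads + 1)) of each ATP synthase gene in prors1 (LUC) against Col-0 (LUC), rls6 against Col-0 (LUC) and rls6 against prors1 (LUC). Violet points are the large cluster, orange points the small cluster, bars are ± SE, grey points are the 100 other tested chloroplast loci and the black line is their median (0.77, 1.11 and 0.30). The gene atpA stands well above that line and atpI below it in each panel.

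Per length, the reads were spread unevenly along both clusters. On the scale of normalized reads per kb of exon, the level in prors1 (LUC) was 414 ± 132 at atpI, 138 ± 23.3 at atpH, 91.4 ± 14.3 at atpF and 181 ± 26.5 at atpA, in the order of transcription. In rls6 the levels were 444 ± 59.7, 158 ± 18.2, 108 ± 11.6 and 291 ± 25.0, and in Col-0 (LUC) they were 272 ± 51.4, 50.0 ± 1.00, 52.1 ± 13.7 and 56.9 ± 6.09 (SD, n = 3 each). In every genotype atpI was thus the highest of its cluster per length. In Col-0 (LUC) the levels of atpH, atpF and atpA lay within 1 SD of atpF of each other, while in both mutants atpA stood above atpH and atpF.

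In the small cluster, atpE carried far more reads per length than atpB. Its level was 405 ± 96.2 normalized reads per kb in prors1 (LUC), 540.2 ± 18.9 in rls6 and 163 ± 34.3 in Col-0 (LUC), against 51.4 ± 12.7, 88.9 ± 6.81 and 21.3 ± 0.733 for atpB. The ratio of atpE to atpB per kb was 7.93 ± 1.10 in prors1 (LUC), 6.09 ± 0.303 in rls6 and 7.73 ± 1.87 in Col-0 (LUC). The libraries of Col-0 (LUC) lay between 6.62 and 9.88 and overlapped with those of prors1 (LUC), and the lowest library of either group was above the highest of rls6, at 6.38.

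**Figure D3:**
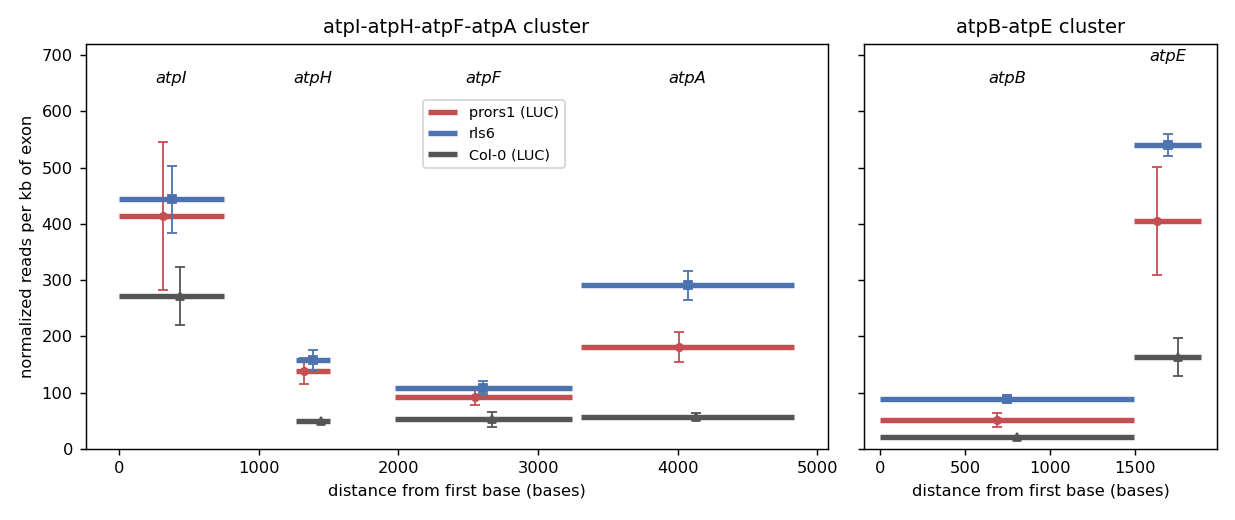
Normalized small RNA reads per kb of exon (y axis, linear from 0) along the 2 ATP synthase clusters, with the distance in bases from the first base of atpI (left) and of atpB (right) on the x axis. Thick lines span each gene (the intron of atpF included) at its mean, and thin bars are ± SD over 3 libraries. The genes atpI and atpE are the highest of their clusters in each genotype.

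Relative to the other chloroplast loci, the genes parted. Each library was scaled to the typical one of the 100 other tested chloroplast loci (by its median ratio over them) and the same test was run. In prors1 (LUC) against Col-0 (LUC), atpA rose more than the typical one of these loci by 0.83 ± 0.16 (SE) on the log2 scale (adjusted p = 1.97e-05), atpH by 0.59 ± 0.27 (adjusted p = 0.0397) and atpE by 0.46 ± 0.18 (adjusted p = 0.0166). The relative changes of atpB (0.41 ± 0.20, adjusted p = 0.0602), atpF (-0.00267 ± 0.23, adjusted p = 0.992) and atpI (-0.27 ± 0.17, adjusted p = 0.145) did not pass.

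In rls6 against Col-0 (LUC), 3 genes were higher than the typical chloroplast locus and 1 was lower. The relative log2 fold change was 1.17 ± 0.16 at atpA (adjusted p = 5.85e-09), 0.87 ± 0.20 at atpB (adjusted p = 9e-05) and 0.56 ± 0.18 at atpE (adjusted p = 0.00313). At atpI it was -0.46 ± 0.17 (adjusted p = 0.00986), so its reads rose less than those of the typical other chloroplast locus. The values of atpH (0.45 ± 0.27, adjusted p = 0.103) and atpF (-0.09 ± 0.23, adjusted p = 0.686) did not pass. In rls6 against prors1 (LUC) limma called 0 of the 6 genes on this scale, as did edgeR, with unadjusted p-values under 0.05 for the 2 genes atpA (0.0433) and atpB (0.0249).

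This scaling turns most nuclear genes lower, so 76.4% of all tested genes passed in prors1 (LUC), 89.3% in rls6 and 28% between the mutants, and an adjustment over them is lenient. Higher calls made up 1.41%, 2.98% and 5.79% of the tested genes and lower calls 74.9%, 86.3% and 22.2%. Of the 100 other chloroplast loci, 24 were higher and 13 lower in prors1 (LUC), 25 higher and 17 lower in rls6, and 0 higher and 1 lower between the mutants. In a fit over the 106 tested chloroplast loci alone, chosen after seeing the data, atpH no longer passed in prors1 (LUC) (adjusted p = 0.0521) and atpB did (0.0311). In that fit atpA also passed between the mutants (0.0324). Of the other 100 loci in it, 39% passed in prors1 (LUC), 46% in rls6 and 2% between the mutants.

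Which libraries were in the fit mattered for the smaller relative changes. In prors1 (LUC), atpH was lost without any 1 of 7 libraries, all but Col-0 (LUC) replicate 1 and prors1 (LUC) replicate 1, with adjusted p-values of 0.0521 to 0.183. There atpE was lost without Col-0 (LUC) replicate 1 (0.0536) or replicate 2 (0.0549), or prors1 (LUC) replicate 1 (0.0538) or replicate 3 (0.0517). In rls6, the lower value of atpI was lost without Col-0 (LUC) replicate 1 (0.0627) or rls6 replicate 1 (0.0631). Between the mutants, atpB passed without prors1 (LUC) replicate 1 (0.0423). The calls of atpA against Col-0 (LUC) in both mutants, and of atpB and atpE in rls6, held without each of the 9 libraries. The choice of scaling loci mattered too. Scaled to the 22 listed photosynthesis loci of the chloroplast, atpE was not called in prors1 (LUC) (0.341) or rls6 (0.133), nor atpH in prors1 (LUC) (0.239), while atpI was called lower in prors1 (LUC) (0.0295). Scaled to the summed chloroplast reads, atpI was not called in rls6 (0.103).

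**Figure D4:**
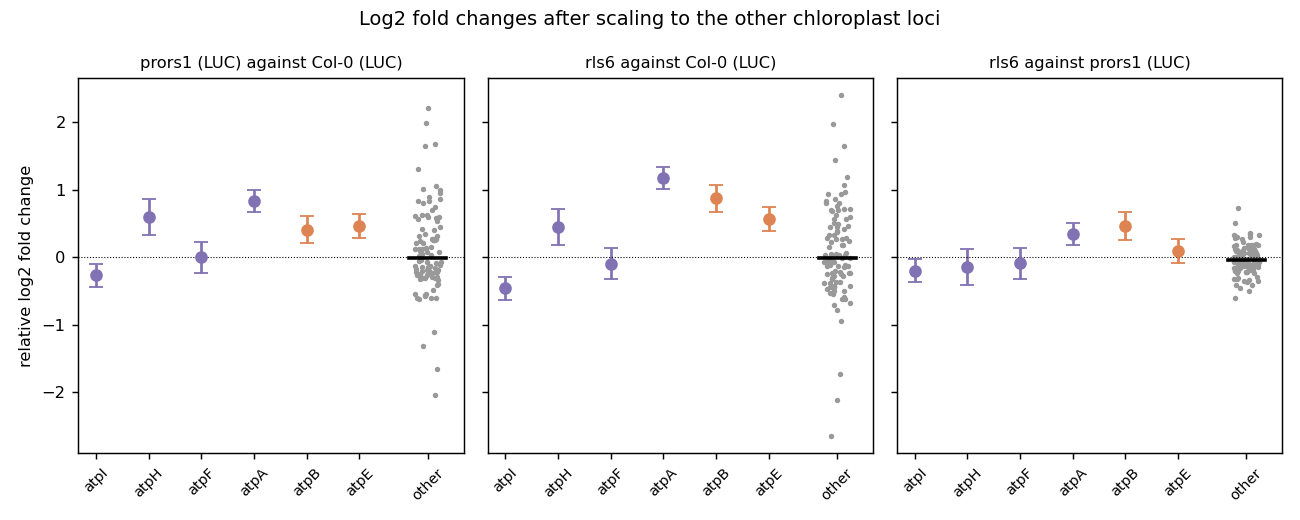
Log2 fold changes (y axis) of the ATP synthase genes after each library was scaled to the 100 other tested chloroplast loci, in the same 3 comparisons, symbols and colours as for the unscaled changes. Zero is the typical other chloroplast locus. The gene atpA lies at 0.83 in prors1 (LUC) and 1.17 in rls6 against Col-0 (LUC), and atpI lies at -0.27 and -0.46.

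Within the large cluster, the make-up of the reads differed between the genotypes. The share of atpA was 38.3% to 45.4% over the prors1 (LUC) libraries, 49.7% to 51.8% over the rls6 libraries and 24.0% to 30.8% over the Col-0 (LUC) libraries, and none of these ranges overlapped. The share of atpI was 37.8% to 50.6%, 36.2% to 39.6% and 55.6% to 65.2% in the same order, so every Col-0 (LUC) library had a larger atpI share than any mutant library. The ratio of atpA to atpI per kb was 0.462 ± 0.115 in prors1 (LUC), 0.658 ± 0.0418 in rls6 and 0.215 ± 0.0502 in Col-0 (LUC) (SD, n = 3 each), with no overlap between the genotypes. The genes atpH and atpF together made up the rest, with atpH at 3.54% to 7.22%, 3.80% to 5.38% and 3.21% to 4.09%, and atpF at 5.96% to 9.63%, 6.16% to 7.97% and 6.86% to 9.63%. Being shares of 1 sum, these values are not independent of each other.

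The ratio of the large to the small cluster was lower in every mutant library than in every Col-0 (LUC) library. The summed normalized reads of the large cluster were 672 ± 134 in prors1 (LUC), 874 ± 79.5 in rls6 and 332 ± 46.0 in Col-0 (LUC), and those of the small cluster were 239 ± 55.7, 349 ± 17.1 and 97.0 ± 12.8. Per kb of exon the large cluster held 219 ± 43.4, 284 ± 25.9 and 108 ± 15.0 normalized reads, and the small cluster 126 ± 29.4, 184 ± 9.04 and 51.2 ± 6.78. The large cluster had 2.58, 2.73 and 3.20 reads for each read of the small cluster in prors1 (LUC), 2.49, 2.35 and 2.68 in rls6, and 3.61, 3.22 and 3.43 in Col-0 (LUC). The margin was narrow at prors1 (LUC) replicate 3, and the mutants overlapped each other. The order depended on the genes summed. Without atpI and atpE, the genes with the most reads of each cluster over all 9 libraries, the mean log2 ratios were 2.25 in prors1 (LUC), 2.03 in rls6 and 2.00 in Col-0 (LUC). In rls6 atpA and not atpI had the most reads, and without atpA and atpE, a choice made after seeing the data, they were 2.35, 1.70 and 2.93. No test was made of this ratio, since the genes were chosen with earlier results of these data known. Both clusters together made up 3.50% to 3.86% of the chloroplast reads in prors1 (LUC), 4.16% to 4.49% in rls6 and 2.81% to 3.25% in Col-0 (LUC).

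**Figure D5:**
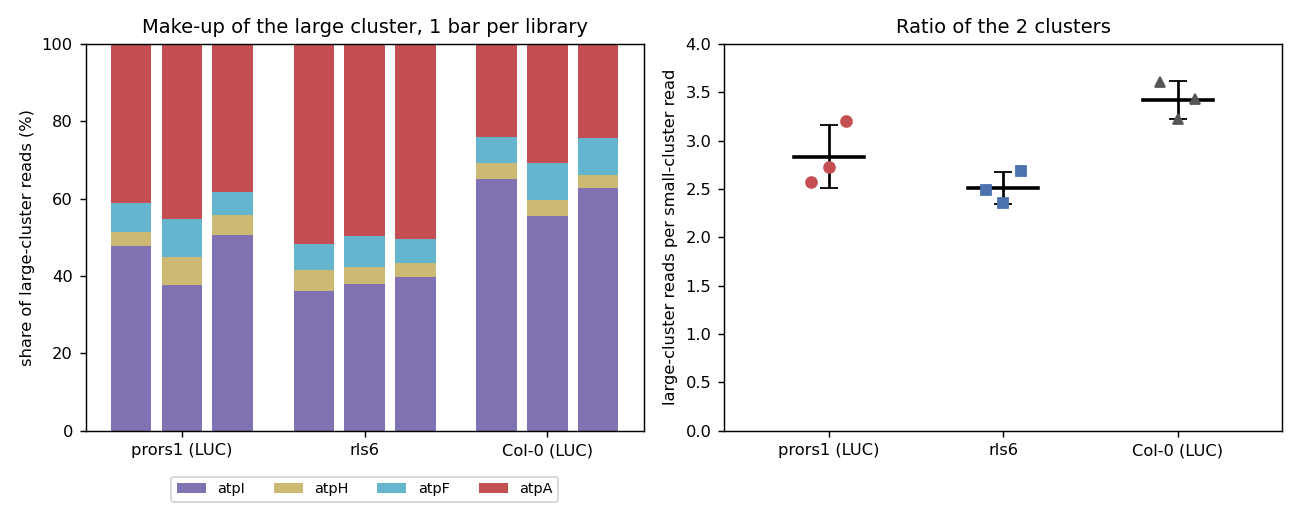
Left, share of each gene in the normalized reads of the large cluster (y axis, %), with 1 bar per library. Right, reads of the large cluster per read of the small cluster (y axis, linear from 0), with points for libraries and bars for the mean ± SD. The atpA share is largest in rls6 (49.7% to 51.8%) and smallest in Col-0 (LUC) (24.0% to 30.8%), and the ratio is highest in Col-0 (LUC).

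The median log2 fold change of the 6 genes was 1.26 in prors1 (LUC), 1.65 in rls6 (each against Col-0 (LUC)) and 0.34 between the mutants. Over the 100 other chloroplast loci the medians were 0.77, 1.11 and 0.30, and over all tested genes 0.01, -0.02 and -0.02. Ranked by log2 fold change among the 106 tested chloroplast loci, atpA was number 12, 6 and 5 in the 3 comparisons and atpB number 29, 11 and 3. The gene atpI was number 82, 88 and 84, and the remaining 3 genes lay between atpA and atpI. The first and the last gene of the large cluster thus stood far apart in this order.

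The loci next in number to the clusters, known here by identifier alone, were described for context. Those above the large cluster in number were ATCG00170, ATCG00180 and ATCG00190, and they rose 2.41-, 3.12- and 3.61-fold in prors1 (LUC) and 2.76-, 3.65- and 4.39-fold in rls6 (largest adjusted p = 8.89e-06). ATCG00160, next in number to atpI, had 3 to 10 reads per library and was not tested. Below it in number, ATCG00090 rose 1.63-fold in prors1 (LUC) and 1.67-fold in rls6. ATCG00100 and ATCG00110 rose 1.42- and 1.91-fold in rls6 (adjusted p = 0.0044 and 0.00197), while their ratios of 1.18 and 1.57 in prors1 (LUC) did not pass (adjusted p = 0.248 and 0.0506). In the reference annotation rps2 lies 242 bases upstream of the large cluster on the same strand.

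Beside the small cluster, ATCG00490 had 1347 ± 291 normalized reads in prors1 (LUC), 1839 ± 89.9 in rls6 and 499 ± 27.4 in Col-0 (LUC). It rose 2.70-fold in prors1 (LUC) and 3.68-fold in rls6 (adjusted p = 7.65e-09 and 2.7e-11). ATCG00500 rose 1.71- and 2.65-fold, and ATCG00450 and ATCG00460 rose 1.51- and 2.36-fold in prors1 (LUC) and 1.93- and 2.55-fold in rls6 (largest adjusted p = 0.0304). In Col-0 (LUC), ATCG00460 had 8.03 to 8.36 normalized reads (8 to 10 reads per library), below the filter value of 10. ATCG00460 was thus tested only because of its mutant libraries, and its calls are not independent of that filter. Like atpA and atpB, ATCG00490 and ATCG00500 were also higher in rls6 than in prors1 (LUC) (1.37- and 1.55-fold, adjusted p = 0.00638 and 0.000573). In the reference annotation rbcL lies 801 bases from the start of atpB, on the opposite strand.

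By the shape of their values over the 9 libraries, the loci most like the mean of the large cluster were ATCG00380, ATCG00860 and ATCG01050, and those most like the small cluster were ATCG00490, ATCG01060 and ATCG00600. Likeness was the root mean square difference of log2(normalized reads + 1), after each gene was centred on its own mean. It was 0.0876, 0.10 and 0.143 for the first set and 0.103, 0.158 and 0.167 for the second. The named loci were picked as the nearest of all tested loci outside the 6 genes, so their small distances come in part from that choice. The 4 genes of the large cluster lay 0.232 to 0.385 from its mean, while atpE and atpB of the small cluster lay 0.172 and 0.307 from it. The genes atpB and atpE both lay 0.121 from the mean of the small cluster, since 2 genes are always equally far from their own mean. The gene atpA lay 0.385 from the mean of its own large cluster and 0.226 from that of the small cluster, and atpI lay 0.368 from the large and 0.522 from the small cluster. The libraries share depth and scaling, so this is a description of shape only.

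The nuclear genes of the chloroplast ATP synthase had almost no small RNA reads. Of the 4 listed genes of subunits, ATPC1 and ATPC2 (both for gamma, the shaft of the motor), ATPD (delta) and PDE334 (a second b-type subunit), 0 of 4 had enough reads to be tested. They had 15 reads over the prors1 (LUC) libraries, 25 over the rls6 libraries and 17 over the Col-0 (LUC) libraries. Of 5 listed nuclear factors for making the enzyme, AT2G31040 (CGL160, which helps assemble the ring), AT4G34090, AT2G21385, AT4G30825 and AT3G29185, 0 of 5 were tested, with 18, 28 and 31 reads in the same order. With so few reads, a change in small RNA at these nuclear genes was not tested.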

How the data were processed

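Small RNA of 9 Arabidopsis thaliana libraries was measured, 3 per genotype, grouped by sample title. The build was TAIR10 and the tools were Bowtie2, featureCounts, FastQC and Trimmomatic, per the submitters' processing notes. Their versions and settings are not given in the sources used. The table deposited by the authors holds a signal per library, reads divided by a size factor (normalized reads), and a base mean, also a signal. Values were whole multiples of 1 step per library within 1e-06, which gave back the reads for 100% of values. The deposited table also holds the authors' log2 fold changes with standard errors, p-values (raw and adjusted) and a Wald score, per the file headers. Its header names no groups, and its log2 column tracked the fold change of prors1 (LUC) over Col-0 (LUC) across the 4766 tested genes (Pearson r 0.991, against 0.561 and -0.298 for the other comparisons).

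Levels were tested with limma 3.58.1 (R 4.3.3, mean-variance trend) on log2(normalized reads + 1) over all 9 libraries with genotype as the term, for genes reaching 10 normalized reads in 3 libraries or more, two-sided, at a Benjamini-Hochberg adjusted p of 0.05 over all tested genes. Fold values are ratios of group means. At low read numbers the log2 scale understates a change. Alternatives used edgeR 4.0.16 and DESeq2 1.42.0 on recovered reads, other scalings, filters and pseudocounts, and fits without each library. The test was also run on simulated data, with independent libraries and the same dispersion for every gene. These settings are simpler than the data, so that run does not measure error rates here. Replicate pairs differed by more than sampling noise (chi-square per degree of freedom 1.49 to 7.13). No batch is labelled. All 6 genes, the loci next to the clusters in number, the 3 loci most like each cluster and listed genes past the threshold were named. Of 6 mitochondrion-encoded ATP synthase loci 2 were tested, and of 5 nuclear loci for mitochondrial subunits 0 were. Genes and lists were chosen with earlier results of these data known. Gene positions and sequences come from TAIR10.1 (RefSeq), whose annotation does not pair chloroplast identifiers with names.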

Additional observations from a re-analysis of the deposited data

How the results depend on the processing

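Every rise of the 6 genes against Col-0 (LUC) kept its direction under all 22 alternatives, and the calls held under all of them except for atpI. In prors1 (LUC) 5 or 6 genes were called without 1 library, in rls6 6, and in rls6 against prors1 (LUC) 2 or 3. Over all genes these fits called 484 to 725, 644 to 907 and 602 to 851. The atpI call in prors1 (LUC) was also lost with the total of nuclear loci as scale (adjusted p = 0.0536), without a trend (0.22), with DESeq2 (0.227) and with only the 2 groups in the fit (0.0755). That in rls6 was lost without a trend (0.106) and with DESeq2 (0.0898). Between the mutants atpI lay between -0.15 (without prors1 (LUC) replicate 2) and 0.30 without 1 library. The labels do not say that replicate numbers pair libraries. Deviations of same-numbered libraries correlated above 0.1 in 7 of 9 pairs (-0.112 to 0.338), with replicate 1 of prors1 (LUC) below in both of its pairs, and 14 of 18 best matches were the own number, a hint of pairing from the data. All 3 pairs of rls6 and Col-0 (LUC) were above 0.1 (0.191 to 0.288). With the replicate block 6, 6 and 3 genes were called in the 3 comparisons (main 6, 6 and 2), the added one being atpE between the mutants (adjusted p = 0.023), and 3, 4 and 0 relative to other chloroplast loci, as without it. Over all genes the block gave 825, 967 and 909 calls (main 685, 841 and 802). On the relative scale it gave 3709, 4293 and 1517 (main 3639, 4256 and 1336).

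Relative to the other chloroplast loci, scaling to the listed photosynthesis loci gave 2 calls in prors1 (LUC) (atpA higher, atpI lower) and 3 in rls6, and scaling to summed chloroplast reads gave 4 in prors1 (LUC) (atpB gained), 4 in rls6 (all higher, atpH gained and atpI lost) and 2 between the mutants (atpA and atpB). Over all genes these scalings called 4059 and 4341 (photosynthesis loci) and 3389 and 4065 (summed reads) in prors1 (LUC) and rls6. Between the mutants they called 635 and 849. A fit over chloroplast loci alone gave 1 between the mutants, where it called 3 loci in all. Without 1 library the counts were 1 to 2, 3 to 4 and 0 to 1, while 2821 to 3793, 4009 to 4294 and 693 to 1776 of all genes were called. Relative values near 0 changed sign. That of atpF became 0.059, 0.077 and 0.018 with summed reads in the 3 comparisons, and lay between -0.12 and 0.12, -0.22 and 0.036, and -0.21 and 0.021 without 1 library. That of atpH between the mutants lay between -0.39 and 0.051 without 1 library. The cause was not tested.

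The log2 ratio of the clusters was 1.50, 1.32 and 1.77 in prors1 (LUC), rls6 and Col-0 (LUC), and 1.41 to 1.56, 1.27 to 1.37 and 1.73 to 1.82 without 1 library. As a mean of log2 values it was -0.0075, -0.31 and 0.15. Without atpI and atpE, the most abundant genes of each cluster over all libraries, it was 2.25, 2.03 and 2.00. Here Col-0 (LUC) was no longer highest, and its mean lay close to that of rls6. Without atpA and atpE, chosen after seeing the data because atpA was the most abundant in rls6, it was 2.35, 1.70 and 2.93, with Col-0 (LUC) highest.

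Over all genes, 685 were called in prors1 (LUC), but 363 by DESeq2 and 429 without a trend. Between the mutants 802 were called, and 496 by DESeq2. Relative to chloroplast loci 1336 were called there, but 849 (summed reads), 635 (photosynthesis loci) and 693 to 1776 without 1 library. Of the calls, 53.9%, 71.9% and 69.3% were higher in the 3 comparisons, but 34.0%, 58.2% and 77.3% with the total of nuclear loci, 51.3%, 54.7% and 54.6% with upper-quartile scaling, and 46.4%, 48.7% and 53.0% with the total without 5 loci. Such scalings moved the median of all genes to -0.15 at most. Depth limits atpH most, with 12 to 48 reads per library.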
